A study of Caenorhabditis elegans with 3 samples.

Results

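Genes for splicing factors and RNA-binding proteins were examined for occupancy by ELT-3 in larvae of the nematode C. elegans. They were defined as protein-coding genes whose symbol begins with rbm-, rsp-, snr-, prp-, hrp-, hrpa-, uaf- or sfa-. Of 19973 protein-coding genes on the nuclear chromosomes, 46 met this definition. The rbm-, prp-, rsp-, snr-, hrpa-, uaf- and sfa- prefixes held 13, 13, 8, 7, 2, 2 and 1 of them, and no current symbol began with hrp-. ELT-3, a transcription factor of the GATA family best known from the epidermis, was mapped by ChIP-seq (sequencing of the DNA that is precipitated with a protein). All samples were whole larvae of the L1 stage, both sexes pooled, from strain OP75, which carries unc-119(ed3) III and wgIs75. In this line a C-terminal GFP-FLAG tag is fused to ELT-3. The 3 libraries form 1 group: 2 are technical repeats of biological replicate 1, and the third is biological replicate 2. Whole larvae hold all tissues, so these peaks do not show in which cells a promoter was occupied. There was no second condition to compare, and no expression was measured.

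Splicing removes introns from pre-mRNA. The spliceosome is built from small nuclear ribonucleoproteins, whose shared core is a ring of Sm proteins (the snr- genes), and from many further factors, several of them named prp- after their yeast counterparts. The U2AF subunits (uaf-1 and uaf-2) and SF1 (sfa-1) recognise the 3′ end of the intron and the branch point. SR proteins (rsp-) and hnRNP proteins (hrpa-) bind exons and introns and shift the choice of splice sites. The rbm- symbol is given to proteins with an RNA recognition motif, which act in splicing and in other steps of RNA metabolism. Splicing takes place in most or all cells, but where each of these genes is expressed was not examined.

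A gene was counted as bound when the summit of a thresholded peak on the ce11 build lay between 1000 bp upstream and 200 bp downstream of the start of any of its transcripts. The prefixes were chosen with earlier results of these peaks known, and bound genes were selected on the summits themselves. The shares below are therefore descriptions without a test. Of the 46 genes, 25, or 54.3%, were bound, against 15.5% of all protein-coding genes (3092 of 19973). The exact 95% interval of the members' share, for counting error only, was 39 to 69.1%. The 25 genes rested on 23 distinct peaks, because rsp-1 and rsp-2 share a summit, and so do rsp-5 and snr-3.

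The prefixes differed in share. SR protein genes had the highest share, with 7 of 8 bound (87.5%). Sm protein genes followed with 5 of 7 (71.4%) and rbm- genes with 7 of 13 (53.8%). The prp- genes were bound in 5 of 13 cases (38.5%) and the hrpa- genes in 1 of 2. The 3 genes for recognition of the 3′ end of the intron, uaf-1, uaf-2 and sfa-1, had no promoter summit. The groups are small and the intervals wide, at 47.3 to 99.7% for rsp- and 13.9 to 68.4% for prp-. These 2 intervals overlap, and a difference between prefixes was not tested. By chromosome, 5 of 9 members on I, 7 of 9 on II, 8 of 12 on III, 3 of 10 on IV, 2 of 5 on V and 0 of 1 on X were bound. The share of all coding genes on each chromosome was not counted, so these numbers show no trait of the members. Both summits shared by members lie on II.

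**Figure D1:**
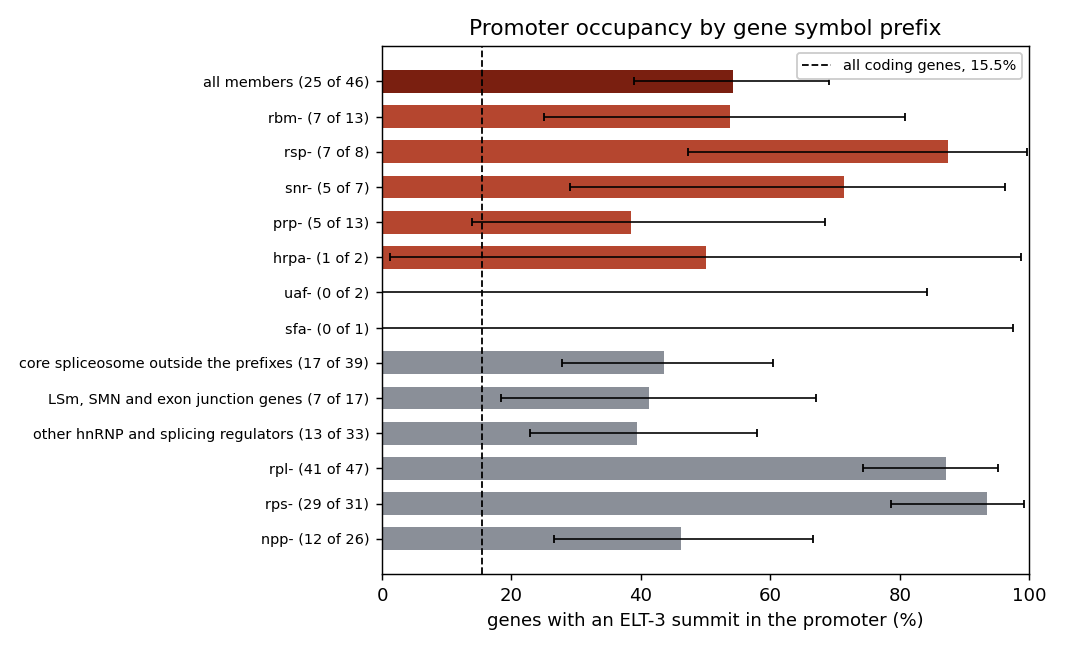
Share of genes with an ELT-3 summit in the promoter, for all 46 members, for each prefix, for 3 lists of other RNA-processing genes and for ribosomal protein (rpl-, rps-) and nuclear pore (npp-) genes. Bars are percentages with exact 95% intervals, and the dashed line is the share of all coding genes, 15.5%. The rsp- bar stands highest among the members, and uaf- and sfa- are at 0.

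Sequences under a selection of these summits are shown first, because GATA sites were rare there and other short sequences recurred. Most were picked because they hold one of the sequences marked in capitals, and rsp-8 and rbm-28 are added as examples that hold none. The strong peaks of rsp-7 and rbm-39 are not shown. Each line gives the bases within 50 bp of the summit on ce11, cut short where an exon begins, read 5′ to 3′ on the strand of the first gene named. They come from the RefSeq WBcel235 genome. Capitals mark 4 sequences, on either strand. The first is the GATA site WGATAR, in which W stands for A or T and R for A or G. The others, AGTACG and, less often, CGACGC and also GCGTCA, recurred among the members and are counted further on. A run of more than 6 capitals is made of overlapping matches.
rsp-1 and rsp-2 (chrII:11453185-11453285, plus strand): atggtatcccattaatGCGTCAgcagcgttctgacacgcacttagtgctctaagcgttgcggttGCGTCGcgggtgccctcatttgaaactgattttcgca
rsp-3 (chrIII:12688139-12688239, minus strand): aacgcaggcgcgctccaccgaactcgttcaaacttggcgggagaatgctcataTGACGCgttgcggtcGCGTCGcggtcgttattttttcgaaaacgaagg
rsp-6 (chrIV:7791350-7791450, minus strand): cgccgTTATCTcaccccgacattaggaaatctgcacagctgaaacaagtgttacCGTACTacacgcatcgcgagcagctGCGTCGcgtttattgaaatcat
rsp-5 and snr-3 (chrII:6489939-6490039, plus strand): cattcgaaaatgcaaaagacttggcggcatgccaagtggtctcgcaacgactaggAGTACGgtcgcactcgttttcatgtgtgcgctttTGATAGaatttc
prp-8 (chrIII:8164032-8164132, plus strand): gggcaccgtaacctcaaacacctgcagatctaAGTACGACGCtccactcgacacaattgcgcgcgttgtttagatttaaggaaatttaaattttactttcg
prp-19 (chrIII:5172635-5172719, minus strand): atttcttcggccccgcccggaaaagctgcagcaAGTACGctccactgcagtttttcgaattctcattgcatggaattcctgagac
prp-40 (chrIII:9521839-9521939, plus strand): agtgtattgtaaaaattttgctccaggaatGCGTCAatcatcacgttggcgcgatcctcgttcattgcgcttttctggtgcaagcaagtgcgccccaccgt
rbm-25 (chrV:12497889-12497989, plus strand): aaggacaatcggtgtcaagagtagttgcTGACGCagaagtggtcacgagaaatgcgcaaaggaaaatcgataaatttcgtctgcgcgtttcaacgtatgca
rbm-26 (chrIII:5710810-5710910, plus strand): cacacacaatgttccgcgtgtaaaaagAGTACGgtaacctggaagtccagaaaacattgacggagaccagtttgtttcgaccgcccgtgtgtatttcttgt
hrpa-1 (chrIV:3338883-3338983, minus strand): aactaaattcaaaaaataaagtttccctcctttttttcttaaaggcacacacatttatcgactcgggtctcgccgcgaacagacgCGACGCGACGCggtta
rsp-8 (chrIII:11825821-11825921, plus strand): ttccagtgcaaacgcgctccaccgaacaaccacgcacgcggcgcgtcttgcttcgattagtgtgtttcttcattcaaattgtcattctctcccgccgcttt
rbm-28 (chrII:14857065-14857165, plus strand): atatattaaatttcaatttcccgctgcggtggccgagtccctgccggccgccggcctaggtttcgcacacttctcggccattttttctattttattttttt

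Each peak carries a signal set by the authors, whose scale is not stated and which serves here to rank peaks within a list. The median signal of the members' promoter peaks was 69.8, against 60.4 for the 2568 other promoter peaks. The members' ranks were spread over most of the list, between 187 at rsp-1 and rsp-2 and 4070 at rbm-28. Promoter peaks of large-subunit ribosomal protein genes (rpl-) had a median of 117.5 and those of small-subunit genes (rps-) 89.5, both above that of the members.

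SR protein genes held the strongest peaks of the set. The summit between rsp-1 and rsp-2 had a signal of 158 and ranked 187 of 4530 peaks. In the list of replicate 1 the promoter peak had a signal of 125 and ranked 47, and in that of replicate 2 it had 27.6 and ranked 2419. The peak thus stood near the top in replicate 1 and lower down in replicate 2. rsp-7 followed with a signal of 128 and rank 400 in the thresholded list. Its signal was 97.3 in replicate 1 and 26.8, at rank 2516, in replicate 2, the same lean as at rsp-1. rsp-3, which encodes the counterpart of the human splicing factor SRSF1, had a signal of 100.96 and rank 786, and it ranked 569 in replicate 1 and 1776 in replicate 2. rsp-6, related to human SRSF3, had 82.2 at rank 1298, with ranks of 848 in replicate 1 and 2372 in replicate 2. rsp-5 had 69.2 at rank 1791, and rsp-8, related to the splicing regulator Tra2, had 44.8 at rank 3439. The peak of rsp-8 was among the least even, at rank 1914 in replicate 1 and 14178 in replicate 2. rsp-4, related to human SRSF2, was the one SR protein gene without a promoter summit. Its nearest thresholded summit, with a signal of 111, lay 1294 bp upstream of its start, outside the promoter window.

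Among the rbm- genes, rbm-39 had the strongest peak. It encodes a counterpart of a human coactivator and splicing factor, and its signal was 113 (rank 561), with 97.6 in replicate 1 and 17.9 in replicate 2. The peak, at chrIV:1012466-1012785, had its summit 2 bp downstream of a start of rbm-39, in the untranslated part of the first exon. It ranked 116 in replicate 1 and 4392 in replicate 2, the same lean towards replicate 1 as at rsp-1. rbm-25, whose human counterpart works with the U1 particle, had a signal of 83.6 (rank 1240), with 55.2 and rank 928 in replicate 1 and 30.9 and rank 2019 in replicate 2. rbm-12 had a signal of 70.2 (rank 1725) and was one of 3 members that ranked higher in replicate 2, at 1235, than in replicate 1, at 2665. rbm-26 had 69.8 (rank 1757) and rbm-5 had 61.7 (rank 2166). rbm-7, related to a subunit of a human nuclear RNA decay complex, and rbm-28 were the weakest, at 41.8 (rank 3744) and 38.8 (rank 4070). For rbm-28 the list of replicate 2 held no overlapping peak. The 6 other rbm- genes, rbm-3.1, rbm-3.2, rbm-17, rbm-22, rbm-34 and rbm-42, had no promoter summit. rbm-34 had one inside its own intron, 1274 bp downstream of its start, with a signal of 67.6.

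Of the prp- genes, those for the U1-associated factor prp-40, the U5 core protein prp-8 and the ubiquitin ligase prp-19 had strong peaks. prp-40 had a signal of 107 (rank 665) at chrIII:9521729-9522048, with 73.8 and rank 382 in replicate 1 and 30.8 and rank 2033 in replicate 2. It was the one member with 2 promoter peaks, and the second (signal 39.4) was intronic, upstream of an internal start. prp-8 had a signal of 97.9 (rank 854), with 59.4 and rank 751 in replicate 1 and 44.3 and rank 1038 in replicate 2, so the replicates placed it much alike. prp-19 had 93.9 (rank 946), and ranked 536 in replicate 1 and 1983 in replicate 2. prp-31, a gene of the U4/U6 particle, had 46.3 (rank 3273). prp-9, a gene of the SF3A complex of the U2 particle, had 38.9 (rank 4061), close to the lowest signal that passed. Genes for other proteins of the same particles were not bound, among them prp-3, prp-4 and prp-6 of the tri-snRNP and prp-21, a partner of prp-9 in SF3A. The late-acting factors prp-17 and prp-18 and the genes prp-38 and prp-39 were not bound either.

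Sm protein genes were bound often but weakly. snr-3 (SmD1), which shares its summit with rsp-5, had a signal of 69.2 and rank 1791, with 46.1 and rank 1381 in replicate 1 and 21.1 and rank 3514 in replicate 2. snr-2 (SmB) had a signal of 49.02 and rank 3030, with 38.3 and rank 1952 in replicate 1 and 18.3 and rank 4283 in replicate 2. snr-4 (SmD2), snr-7 (SmG) and snr-6 (SmE) had signals of 47.3, 43.6 and 40.7, at ranks 3186, 3561 and 3863. All but snr-3 lay below the median of other promoter peaks. The 2 unbound Sm genes were just outside the threshold or moderately below it. In the pooled list snr-1 (SmD3) reached a signal of 35.1 and rank 4543, where the weakest peak that passed had 35.2 and rank 4530. It ranked 7764 in replicate 1 and 2620 in replicate 2, unlike most members. snr-5 (SmF) reached 25.9 and rank 6134. hrpa-1, the counterpart of hnRNP A1, had a signal of 90.4 (rank 1039), with 54.3 and rank 965 in replicate 1 and 40.8 and rank 1247 in replicate 2. Like prp-8, it was placed much alike by the replicates.

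**Figure D2:**
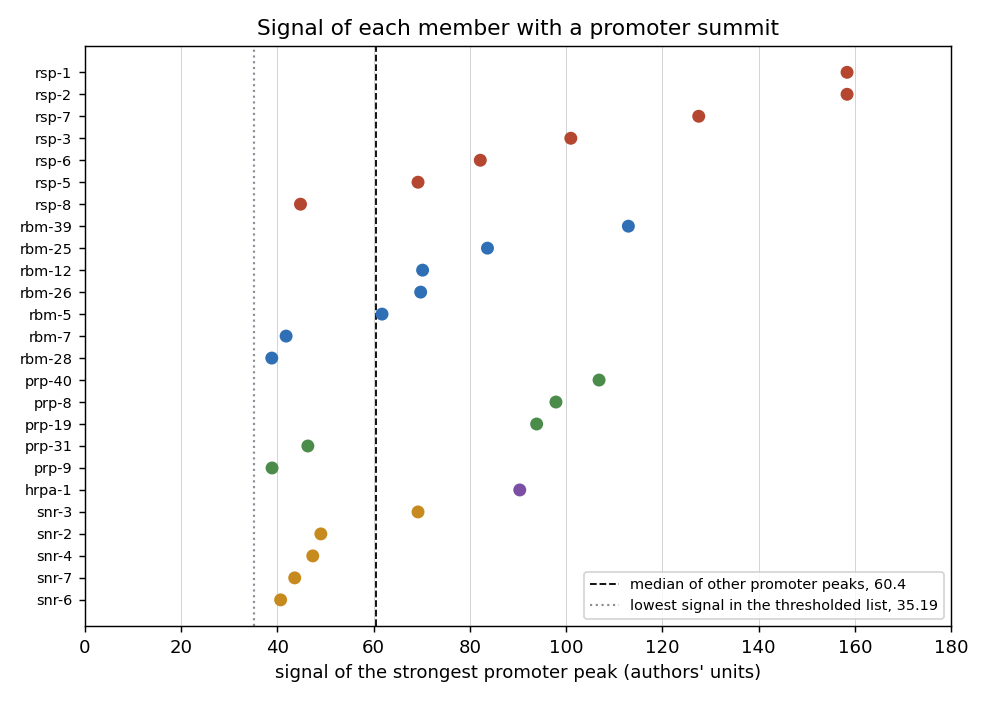
Signal of the strongest promoter peak (x axis, authors' units) of each of the 25 bound members, coloured by prefix. The dashed line is the median of the other promoter peaks, 60.4, and the dotted line the lowest signal in the thresholded list, 35.19. The rsp- genes reach 158, and 4 of the 5 snr- genes lie left of the dashed line.

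The members' peaks ranked higher in replicate 1 than in replicate 2. All 23 member peaks had an overlapping peak in replicate 1, whose relaxed list holds 30000 peaks, and 22 had one in replicate 2, whose list holds 27330. The median rank of these overlapping peaks was 1181 in replicate 1 and 2908 in replicate 2. Of the 22 found in both, 19 (86.4%) ranked higher in replicate 1. The exceptions were rbm-12, snr-6 and prp-9. Among the other promoter peaks found in both, 56.0% ranked higher in replicate 1. Their median rank was 2155 over the 2558 with an overlapping peak in replicate 1, and 2340 over the 2473 with one in replicate 2. The same lean was seen for ribosomal protein genes, at 87.5% of rpl- and 81.5% of rps- peaks. Ranks come from lists of different length, and with 2 replicates a difference between them cannot be tested. With the 4530 strongest peaks of replicate 1 alone, 25 members were bound, against 15.8% of all coding genes. With those of replicate 2 alone, 19 were, against 14.1% of all coding genes. Without replicate 1, snr-1 was gained, and prp-31, rbm-5, rbm-7, rbm-28, rsp-8, snr-4 and snr-7 were lost. Without replicate 2, rbm-3.2 was gained and prp-9 lost.

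**Figure D3:**
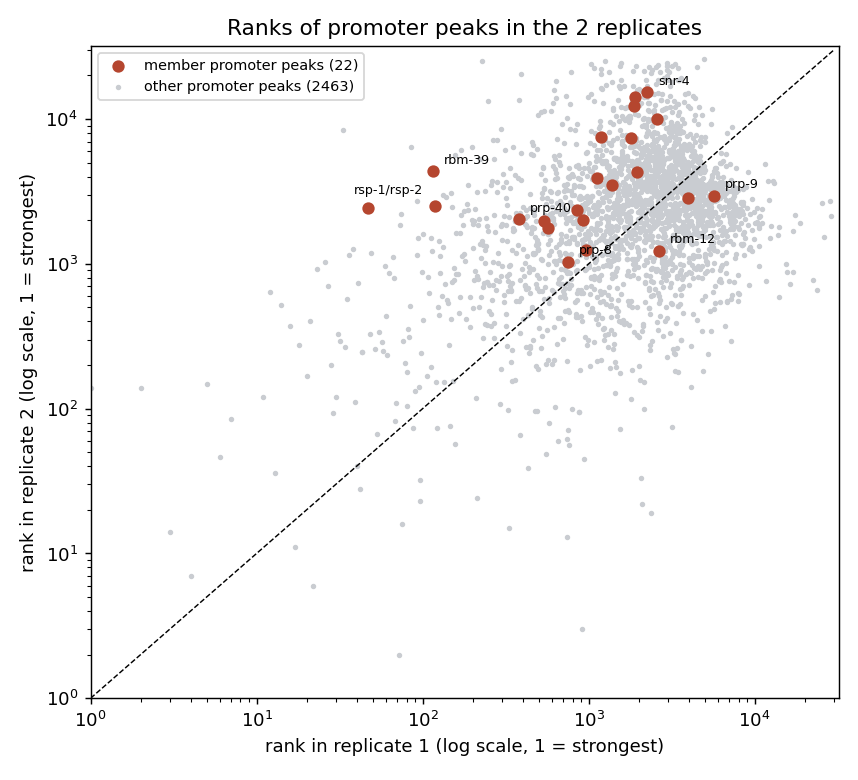
Rank of each promoter peak in the relaxed list of replicate 1 (x axis) and replicate 2 (y axis), both on log scales with 1 as the strongest. Red points are the 22 member peaks found in both lists, grey points the 2463 other promoter peaks found in both, and the dashed line marks equal rank. Of the red points, 19 lie above the line.

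Summits lay upstream of the members' starts, in a narrower range than at bound genes at large. Of the 25 summits, 24 were upstream of the nearest start of their gene and 1, at rbm-39, was downstream. The median distance was 261 bp upstream with quartiles of 165 and 293 bp, against 230 bp with quartiles of 122 and 425 bp for the other 3067 bound genes. Bound rpl-, rps- and npp- genes had medians of 283, 294 and 229 bp upstream. Their quartiles were not computed, so the narrower range is not shown to be particular to the members. With each peak tied to the nearest start, the median of the 16 members still bound was 173.5 bp. The Sm genes all lay between 228 bp upstream, at snr-3, and 347 bp, at snr-2. The summit farthest from its start was that of rbm-26, 682 bp upstream, so no member lay near the upstream edge of the window. Of the 23 peaks, 19 had an intergenic summit and 4 one in a UTR: that of rbm-39, those of Y106G6D.5 and Y71F9B.6 at rbm-12 and snr-7, and that of T08B2.15 at rbm-5.

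**Figure D4:**
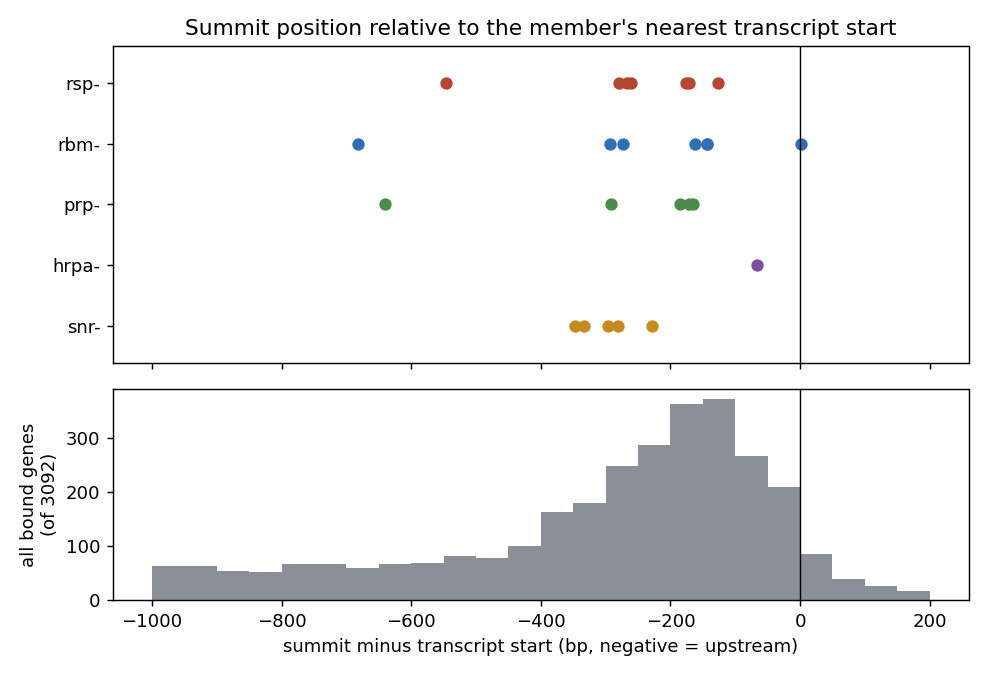
Position of the summit relative to the nearest transcript start, in bp, with negative values upstream. The upper panel shows each bound member by prefix and the lower panel a histogram of all 3092 bound genes. Member summits lie from 682 bp upstream to 2 bp downstream.

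Many members share their bound promoter with a gene on the other strand. The summit also lay in the promoter of a neighbour at 18 of the 25 bound members (72.0%), against 44.7% of all bound genes. The count depends on the window: with promoters of 500 bp upstream to 100 bp downstream it was 13 of 22. The share of all bound genes was not counted for that narrower window. In the main window the neighbour was arranged head to head at all 18, or 72.0% of the bound members, against 41.5% of all bound genes. Of the 1382 bound genes with a shared summit, 1282 had a head-to-head neighbour, so this arrangement was the usual one at shared summits. Such a summit cannot be given to one of the genes. At 16 of the 25 members their own start was the nearest to the summit, and at 9 another gene's was. In 3 of these intervals both genes serve RNA processing: rsp-1 with rsp-2, rsp-5 with snr-3, and rsp-7 with snu-13, which encodes a protein of the U4 particle. The other partners were mixed. prp-31 lies beside mat-1, a gene of the anaphase-promoting complex. The gene next to prp-19 is K10D2.5, whose start was 35 bp from the summit, and the summit also lay in the promoter of emb-1, another gene of that complex. rbm-5 lies beside the phenylalanyl-tRNA synthetase gene fars-1, and prp-9 beside the mitochondrial ribosomal protein gene mrps-18B. When a peak counted solely for the gene whose start was closest, 16 members were bound (34.8%), against 12.1% of all coding genes. Those lost were prp-9, prp-19, rbm-12, rbm-25, rsp-2, rsp-3, snr-2, snr-3 and snr-7.

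A larger share of unbound than of bound members followed a close gene on the same strand, a difference that was not tested. In C. elegans, runs of close genes on 1 strand are often transcribed together as operons from a promoter ahead of the first gene. The annotation used here does not mark operons, so distance was used. Of the 21 unbound members, 9 (42.9%) had a same-strand coding gene ending within 1000 bp upstream, against 4 of the 25 bound members (16%). Over all coding genes the shares were 30.1% of unbound and 19.6% of bound genes. At 5 of the 9 unbound members that upstream gene was itself bound (55.6%), against 16.9% of the corresponding upstream genes of all unbound genes. These 5 were hrpa-2 behind H28G03.2, prp-38 behind plrg-1, prp-39 behind hmgs-1, rbm-17 behind F58B3.6 and rbm-22 behind hars-1, with gaps of 130, 106, 90, 107 and 117 bp. Their nearest thresholded summits lay 2592, 2076, 2103, 1788 and 2565 bp upstream. plrg-1 encodes a spliceosome protein of the complex named after prp-19, and hars-1 a histidyl-tRNA synthetase. uaf-1 lay farther from its upstream gene on the same strand, rab-18, which was bound, with a gap of 1582 bp. Whether these genes are transcribed from the bound promoters was not tested.

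Below the threshold, some unbound members had weaker peaks. The relaxed lists hold many weak peaks, and 41.9% of all coding genes had a promoter summit in that of the pool. There 33 of the 46 members had one (71.7%), the 25 bound ones and prp-6, prp-17, prp-18, prp-21, rbm-3.2, snr-1, snr-5 and uaf-2. Of these 8, 6 also had one in the lists of both replicates, all but prp-17 and uaf-2. With the bound members counted too, 24 bound and 6 unbound members had a promoter summit in all 3 relaxed lists. Over all coding genes, bound ones included, 5588 of the 8367 with one in the list of the pool did. These are 28.0% of all coding genes. rbm-3.2 came close to the threshold with a signal of 34.1 at rank 4671, and it ranked 2540 in replicate 1 and 9990 in replicate 2. prp-6, prp-18 and prp-21 had signals of 25.3, 24.1 and 18.0. No list held a promoter summit for prp-3, prp-4, prp-38, rbm-34 or sfa-1. Of all coding genes, 42.2% had none in any of the 3 relaxed lists.

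GATA sites were scarce under the members' summits. WGATAR lay within 50 bp of 2 of the 23 summits (8.7%, exact 95% interval 1.1 to 28.0%), against 31.7% of the 2568 other promoter peaks. Both are shown above, at rsp-6 and at the summit between rsp-5 and snr-3. In equally wide windows centred 500 bp left and right of the summit the share was 26.1% and 17.4% for the members, and 20.8% and 18.9% for the other promoter peaks. The members' share at the summit thus lay below both of their own flanks, by 4 and 2 peaks. Within 100 bp of the summit it was 21.7%, against 48.8% of all promoter peaks. Within 25 bp no member peak had the site, against 17.5% of all promoter peaks. In the strongest peaks of replicate 2 alone 17.6% of 17 member peaks had it, against 36.1% of all promoter peaks there. The scarcity was not particular to these genes. WGATAR was present at 7.3% of the 41 rpl- promoter peaks, 0 of the 29 rps- peaks and 5.4% of the 37 promoter peaks of other RNA-processing genes. Over the whole 500 bp upstream of the most upstream start, 60.0% of bound and 71.4% of unbound members had WGATAR, against 71.4% of all coding genes.

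Sequences frequent in the peak list at large were not especially frequent either. GAGAGA, searched on both strands, was present at 1 of the 23 member peaks (4.3%), against 23% of other promoter peaks. Its share was also low at rpl- peaks (9.8%), rps- peaks (13.8%), npp- peaks (0 of 12) and peaks of other RNA-processing genes (10.8%). CTGCGT was present at 4 (17.4%), against 14.1%.

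Counting each 6-base sequence together with its reverse complement gives 2080 of them, and by the difference in share AGTACG led in the members' windows. It was present at 8 of 23 member peaks (34.8%), against 4.3% of all 2591 promoter peaks, and at 1 of 23 windows on each flank. The genes are prp-8, prp-19, prp-31, rbm-26, rsp-5, rsp-6, snr-3, snr-6 and snr-7. It overlaps CCGTAC and ACCGTA, which ranked among the first 5, and the longer AGTACGGT was present at 5 member peaks (21.7%), against 0.9% of other promoter peaks. AGTACGGT was also present at 4 of 41 rpl- peaks (9.8%), 3.4% of rps- peaks and 2.7% of peaks of other RNA-processing genes. CGACGC and GCGTCA followed, each at 7 of 23 member peaks (30.4%), against 5.3% and 6.8% of all promoter peaks. At least one of the 3 leading sequences was present at 17 of the 23 peaks (73.9%), against 15.4% of all promoter peaks. The 6 peaks with none of them were those of rsp-7, rsp-8, rbm-5, rbm-28, snr-2 and snr-4. These sequences were picked from the same 23 windows for their difference, so the shares are a description and carry no test. The windows of the members were also richer in G and C, with a median of 48.5% against 43.6% for other promoter peaks. Medians were 50.5% for rpl- peaks, 49.5% for rps- peaks, 46.5% for peaks of other RNA-processing genes and 45.5% for npp- peaks. The part of base composition was not tested.

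The same sequences were then counted at genes outside the prefixes. AGTACG was present at 13.5% of the 37 promoter peaks of other RNA-processing genes, 12.2% of rpl- peaks and 6.9% of rps- peaks. CGACGC was present at 5.4% of the peaks of other RNA-processing genes, 12.2% of rpl- and 6.9% of rps- peaks, and GCGTCA at 18.9%, 7.3% and 3.4% of them. At least one of the 3 was present at 35.1% of the peaks of other RNA-processing genes, 31.7% of rpl- and 13.8% of rps- peaks, so for the first 2 of these sets the share also lay above the 15.4% of all promoter peaks. ACCGTA was present at 30.4% of member peaks, 46.3% of rpl- peaks and 31% of rps- peaks, against 6.9% of all promoter peaks. GAGACC was present at 30.4% of member peaks, 48.8% of rpl- peaks and 44.8% of rps- peaks, against 8.9%. TTCGAA showed another distribution, at 26.1% of member peaks and 27% of those of other RNA-processing genes. It was present at 4.9% of rpl- peaks, 0 of 29 rps- peaks and 5.2% of all promoter peaks. Nuclear pore (npp-) genes had it at 2 of 12 peaks (16.7%), so it was not particular to RNA-processing genes. In the 500 bp upstream of the most upstream start, AGTACG was present at 32.0% of bound and 14.3% of unbound members. It was present at 11.35% of all coding genes with a promoter summit and 9.31% of all coding genes. AGTACG was picked from the summit windows of the bound members, many of which lie in this region. The difference between bound and unbound members therefore follows in part from that choice and carries no test.

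**Figure D5:**
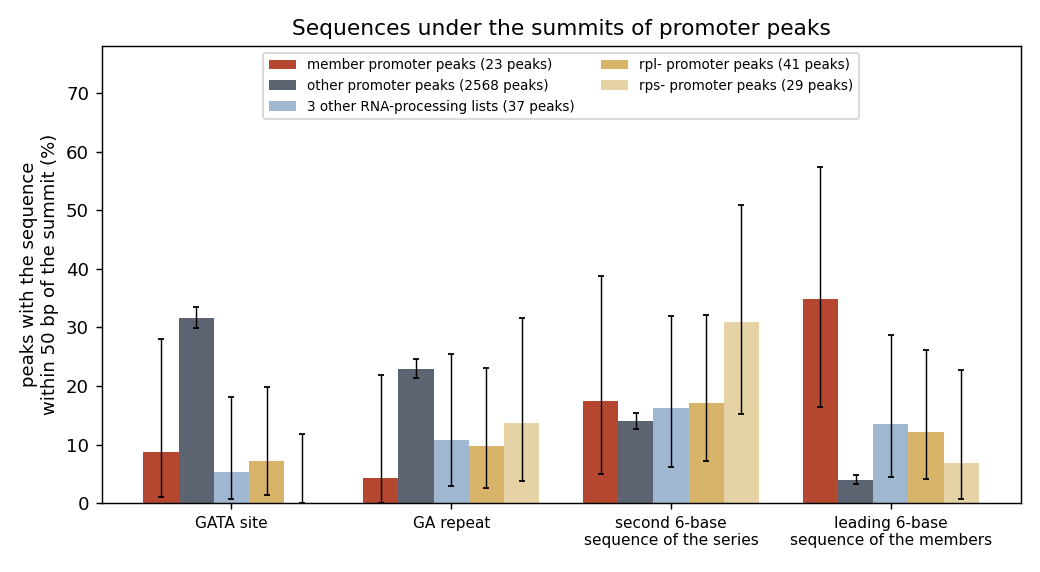
Share of promoter peaks with a sequence within 50 bp of the summit, with exact 95% intervals, for members, other promoter peaks, 3 lists of other RNA-processing genes, rpl- and rps- genes. The GATA site is WGATAR, the GA repeat GAGAGA, the second sequence of the series CTGCGT and the leading sequence of the members AGTACG. The members' bar is low for the GATA site (8.7%) and highest for AGTACG (34.8%), a sequence picked for that difference.

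Other RNA-processing genes, taken from 3 lists of 98 names of which 89 matched the annotation, also exceeded the background share. Together 37 of 89 (41.6%) were bound, against 15.5% of all coding genes. The core spliceosome list had 17 of 39 (43.6%). Its strongest were syf-2, usp-39 and rsr-1 with signals of 120, 83.1 and 82.3. The list of LSm, SMN and exon junction genes had 7 of 17 (41.2%). Its strongest were gut-2, which encodes an LSm protein, with a signal of 91.1, smr-1 with 77.1 and rnp-6 with 69.7. The list of further hnRNP genes and splicing regulators had 13 of 33 (39.4%). Among its strongest peaks were those at swp-1 with a signal of 169, a summit also in the promoter of rpl-23, and at etr-1 with 157. The peak at swp-1 exceeded the strongest of the members, at rsp-1 and rsp-2. Nuclear pore genes (npp-) had 12 of 26 (46.2%), and rpl- and rps- genes 41 of 47 (87.2%) and 29 of 31 (93.5%). No difference between these lists was tested.

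The members' share stayed above that of all coding genes under each way of counting that was run. With the 2265 strongest peaks 16 members were bound (34.8%), against 8.35% of all coding genes. With promoters of 500 bp upstream to 100 bp downstream 22 were bound, against 12.4%, and with 2000 bp upstream to 200 bp downstream 27, against 19.8%. rbm-17 and rsp-4 were the 2 genes gained there. The count was 25 when any base of the peak in the promoter sufficed (16.5% of all coding genes), with the most upstream start only (14.3%), after removal of peaks closer than 20 kb to elt-3 or unc-119 (15.5%), and with starts of coding transcripts only (15.5%).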

How the data were processed

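Peaks were called by the authors from alignments and a control and then thresholded on reproducibility, per the descriptions deposited with the files. Which aligner and caller were used is not given in the sources used here. Lists on ce11 were used, namely the thresholded list of 4530 peaks and the relaxed lists of replicate 1, of replicate 2 and of the pool. The deposited signal of each peak is the authors' value, and summits come from the deposited offsets. No read counts are in these files, so depth is unknown. The ce10 lists were not used.

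Gene models came from Ensembl release 115 and sequences from RefSeq, both WBcel235, which is ce11. Starts of all transcripts of protein-coding genes were used. The members and lists were chosen with earlier results of these data known. Every bound member was named, in full for the 2 strongest of each prefix, as were unbound members with a promoter summit in all 3 relaxed lists, those nearest to the window or signal limits and the 3 strongest genes of each other list. Some items that this rule selects are not reported here. Other unbound members were named after their values were seen. No sequence was taken from 1 chromosome, which holds 5 of the 23 member peaks. Shares have exact Clopper-Pearson intervals (95%), for counting error alone, since neighbouring genes share peaks. The assignment of summits and the motif count were tested on simulated data. Tables were made in Python 3.11.15 with pandas 2.3.3, numpy 2.4.6 and scipy 1.17.1, and plots with matplotlib 3.10.9.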

Additional observations from a re-analysis of the deposited data

How the results depend on the processing

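The number of bound members, 25, moved most when each peak was tied to the nearest start or when only the 2265 strongest peaks were kept, to 16 in both cases. Fewer peak and gene pairs can count under either rule. Leaving out replicate 2 gave 25 and leaving out replicate 1 gave 19. By prefix, the prp- count of 5 was 3 with the strongest peaks and 3 with the nearest start, the snr- count of 5 was 1 and 2 in those settings, and the rbm- count of 7 was 4 without replicate 1. In the relaxed list of the pool the prp- count was 9. That list and the starts of coding transcripts only were chosen after seeing the data. The share of member peaks with WGATAR was 0 within 25 bp of the summit, and the share with GAGAGA or CTGCGT was 4.3% there, against 21.7% within 50 bp; the window is narrower by construction. Of the 30 alternatives for the main results, 26 moved a count by no more than 1.5 times or a value by less than its interval or the spread among members. No prefix holds more than 13 genes, which limits any comparison between prefixes. No paired analysis was possible because there is 1 group of samples, with no comparison between groups.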
